A study of Bos taurus with 7 samples.

Results

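Endothelial cells line blood and lymph vessels, and 10 genes that mark the blood vessel lining were followed here in the rumen epithelium of 7 Holstein calves. The rumen epithelium is the keratinised lining of the forestomach, and its papillae carry a dense bed of capillaries under the epithelial layers. The genes were taken as probes whose name in the scanner output equals PECAM1, VWF, CDH5, KDR, FLT1, TEK, TIE1, ENG, PLVAP or ROBO4. Each of the 10 was found once, as 10 of the 14964 gene names on the array. The study set a forage provision group (HAY, n = 3, calves 9, 10 and 13) against a forage non-provision group (CON, n = 4, calves 8, 11, 12 and 14), with the division of the calves placed 3 weeks after weaning. Its title also names calf starter, rumen pH and the weaning transition. The labels name no other treatment, and no age or sampling day, for either group. Total RNA of each calf, extracted with a phenol-based reagent and labelled with Cy3, was read on its own array, so each calf is 1 replicate. Levels below are log2 signals on which 0 equals the 75th percentile of that calf's own array. In RNA from whole tissue, fewer endothelial cells and less RNA per cell cannot be told apart.

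The members work in a few connected systems. VEGF is the main growth signal of vessels and acts through the receptor tyrosine kinases KDR and FLT1, of which KDR carries most of the growth signal and FLT1 also acts as a trap for the ligand. The angiopoietin receptor TEK and its partner TIE1 stabilise vessels, ENG (endoglin) is a co-receptor for BMP ligands beside the receptor ACVRL1, and ROBO4 is a guidance-type receptor that counters leakage. PECAM1 and CDH5 (VE-cadherin) join neighbouring endothelial cells, PLVAP forms the diaphragms of fenestrated capillaries, and VWF is the clotting glycoprotein stored in endothelial granules. PECAM1 is also made by leukocytes and platelets, and VWF by the precursors of platelets.

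The probes are single DNA strands of 60 bases, and a reading of a gene is a reading of that one stretch. Shown here, 5′ to 3′ as the files give them and on UMD_3.1, are the probes on which the results below turn most: ENG and VWF, then FLT1 and ROBO4, whose calf patterns differed from the others, and PLVAP and CDH5, whose listed positions, like those of ROBO4, span far more genome than the probe. The whole of each probe is read, so no base is set in capitals.

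ENG, chr11:98516554-98516613: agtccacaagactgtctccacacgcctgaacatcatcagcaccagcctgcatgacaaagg
VWF, chr5:104727114-104727173: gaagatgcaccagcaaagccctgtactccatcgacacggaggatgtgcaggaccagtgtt
FLT1, chr12:31718177-31718236: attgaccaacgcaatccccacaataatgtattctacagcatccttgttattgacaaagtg
ROBO4, chr29:28727985-28730384: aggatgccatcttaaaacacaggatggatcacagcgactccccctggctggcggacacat
PLVAP, chr7:5698122-5698312: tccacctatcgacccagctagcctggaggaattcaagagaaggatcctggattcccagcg
CDH5, chr18:34260240-34261160: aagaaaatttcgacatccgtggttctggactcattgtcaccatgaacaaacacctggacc

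The listed positions of the ROBO4 probe span 2400 bases, those of CDH5 921 and those of PLVAP 191, so these probes of 60 bases join sequence that is apart in the genome. The other printed probes span 60 bases each. The files list the positions of VWF, CDH5, FLT1 and PLVAP in rising order, the forward strand, and those of the other members in falling order, the reverse strand. The probe of KDR lies at chr6:72233146-72233205, that of TEK at chr8:17040337-17040396, that of TIE1 at chr3:103278202-103278261 and that of PECAM1 at chr19:49176679-49176742, a span of 64 bases. The letters AATAAA, the usual polyadenylation signal, occur as printed in the TEK and TIE1 probes and in 9.51% of all 15008 probes. Exon and UTR annotation of this build was not used here. The RefSeq accession of 9 probes still names the same gene in the ARS-UCD2.0 gene table, and the PECAM1 probe, which carries another kind of accession, kept its name from the file.

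Between 81.5 and 84.6% of the spots on each array were well above background, and the median processed signal ran from 182.3 to 241.0 intensity units. All 7 arrays lay on 1 slide, with HAY in row 1 and CON in row 2, so a row effect and a feeding effect cannot be told apart. Markers of the labelled tissue were present: all 11 keratinocyte genes of a fixed list were well above background on every array. Their means ran from KRT15, at 6.54 in HAY and 6.78 in CON, down to KRT10, at -1.93 and -2.71. TP63 also lay under 0, at -1.05 and -1.08. Of the endothelial genes, 9 of 10 were well above background on every array. CDH5 was so on only 1 HAY array and 2 CON arrays, although it is a defining gene of endothelium. All 10 passed the filter on dim probes, which asked for 3 of the 7 arrays and which CDH5 met exactly.

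Vessel genes had lower mean signals in the calves given forage: 9 of the 10 had a negative difference of HAY minus CON, and the median of all 10 was -0.75 log2 units. Over all 12570 genes tested 45.5% had a negative difference, and the median was 0.032. PECAM1 (-1.05), VWF (-0.88), PLVAP (-0.80), TEK (-0.76), ENG (-0.73) and TIE1 (-0.72) had differences that correspond to 1.65- to 2.07-fold lower signal, KDR (-0.50) and FLT1 (-0.51) to 1.41- and 1.43-fold, while CDH5, close to background, stood at -0.94. ROBO4 stood at 0.068, a sign that turned with normexp (-0.029) and without HAY calf 10 (-0.032). None of the 10 passed limma's test with Benjamini-Hochberg adjustment over all genes, the lowest adjusted p being 0.256 for ENG. Of all genes tested 0.00796% passed it. At an unadjusted limma p under 0.05 and lower in HAY stood 3 of the 10 (ENG, PECAM1 and TIE1), beside 7.17% of all genes. All HAY calves lay under all CON calves for 1 of the 10 (ENG), beside 5.3% of all genes. The genes were read in the same 7 calves, so these counts are not independent observations.

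**Figure D1:**
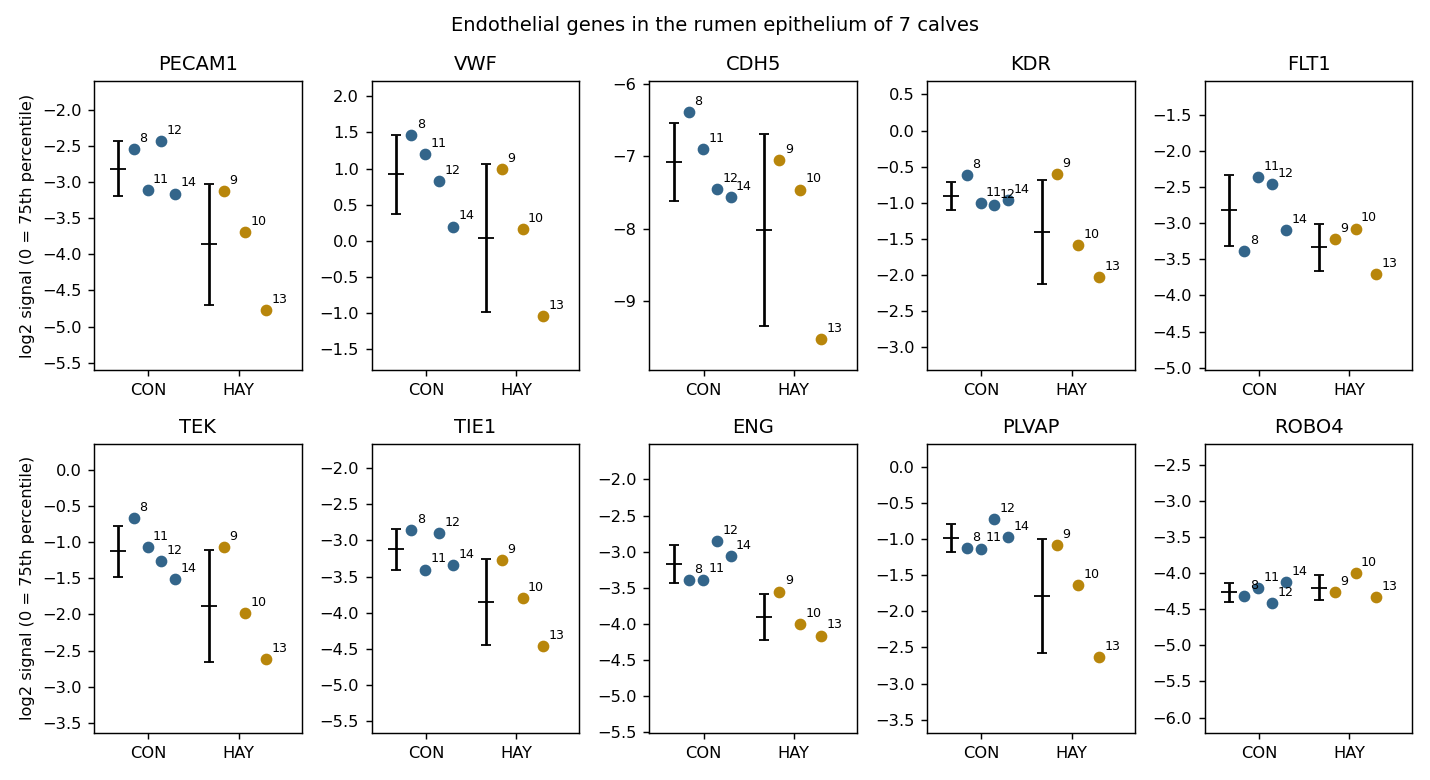
Log2 signal of the 10 endothelial genes in each calf (0 is the 75th percentile of the calf's array), with CON in blue and HAY in ochre, calf numbers beside the points, and the mean ± SD of each group as a black bar; every panel spans 4 log2 units. HAY calf 13 is the lowest point in 9 of the 10 panels, and ENG is the only panel in which the groups do not overlap.

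The co-receptor gene ENG had the clearest separation. Its log2 signal was -3.55, -4.00 and -4.16 in HAY calves 9, 10 and 13, against -3.40, -3.39, -2.85 and -3.06 in CON calves 8, 11, 12 and 14. The highest HAY calf, 9, lay only a little under the lowest CON calf, 8. The HAY mean was -3.91 ± 0.32 (SD, n = 3) beside a CON mean of -3.17 ± 0.27 (SD, n = 4), which is 1.66-fold less signal. The log2 difference was -0.73 (SE 0.21, 95% interval -1.22 to -0.24), with an unadjusted limma p of 0.00922. An exact two-sided permutation test over the 35 splits of 3 against 4 calves gave p = 0.0286, the smallest it can give and not adjusted for the 10 genes. ENG ranked 452nd of the 12570 genes by unadjusted p. Under all 17 alternatives tried its difference lay between -0.91 and -0.57 with an unadjusted p under 0.05, and the adjusted limma p lay between 0.129 and 0.795.

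The junction gene PECAM1 had the lowest difference of the 10 with all calves and the main settings, though not with normexp, where VWF stood at -0.92 and PECAM1 at -0.71, nor in every set of calves. It read -3.13, -3.69 and -4.77 in HAY calves 9, 10 and 13, against -2.54, -3.12, -2.44 and -3.16 in CON calves 8, 11, 12 and 14. HAY calf 9 stood level with CON calves 11 and 14, while calf 13 lay far under all of them. The group means were -3.87 ± 0.83 (SD, n = 3) and -2.81 ± 0.38 (SD, n = 4), which is 2.07-fold less signal under forage. The difference of -1.05 had an SE of 0.39 and a limma adjusted p of 0.313. Without HAY calf 13 the difference was -0.60. CDH5, the other junction gene, read -7.05, -7.46 and -9.53 in the HAY calves in the same order and -6.39, -6.90, -7.46 and -7.56 in the CON calves. These signals, between 2.97 and 22.1 intensity units, are close to background, the lowest being HAY calf 13 at 2.97 and CON calf 12 at 8.68. Its difference of -0.94 (SE 0.59, limma adjusted p = 0.511) was -0.33 with normexp background correction, -0.18 without HAY calf 13, and 0.05 without both calves 8 and 13.

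Among the VEGF receptors, KDR read -0.61, -1.58 and -2.02 in HAY calves 9, 10 and 13, against -0.61, -1.01, -1.03 and -0.96 in CON calves 8, 11, 12 and 14. HAY calf 9 thus matched the highest CON calf, and the other 2 HAY calves lay under every CON calf. The difference was -0.50 (SE 0.32, 95% interval -1.25 to 0.25, limma adjusted p = 0.513), and leaving out HAY calf 13 gave -0.19, leaving out calf 9 -0.90. FLT1 followed another order of calves: -3.23, -3.08 and -3.71 in HAY and -3.38, -2.36, -2.46 and -3.10 in CON. CON calf 8, among the highest calves for KDR, was the second lowest of all 7 for FLT1, and CON calf 11 was the highest. The FLT1 difference was -0.51 (SE 0.29, 95% interval -1.2 to 0.17, limma adjusted p = 0.473), and -0.33 without HAY calf 13.

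The angiopoietin receptor TEK read -1.07, -1.98 and -2.61 in HAY calves 9, 10 and 13, against -0.66, -1.07, -1.26 and -1.51 in CON calves 8, 11, 12 and 14. Its partner TIE1 read -3.28, -3.80 and -4.46 in HAY and -2.86, -3.40, -2.90 and -3.34 in CON. For each gene calf 9 lay among the CON calves, and calves 10 and 13 lay under all of them. The differences were -0.76 for TEK (SE 0.37, limma adjusted p = 0.399) and -0.72 for TIE1 (SE 0.29, limma adjusted p = 0.34). Without HAY calf 13 they were -0.40 and -0.41.

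PLVAP, the diaphragm protein of fenestrated capillaries, read -1.08, -1.64 and -2.64 in HAY calves 9, 10 and 13, against -1.13, -1.13, -0.73 and -0.97 in CON calves 8, 11, 12 and 14. The 4 CON calves differed little from each other (SD 0.19), and the HAY calves widely (SD 0.79), with calf 9 inside the CON range. The difference was -0.80 (SE 0.34, limma adjusted p = 0.358), and -0.37 without HAY calf 13. VWF read 1.0, 0.17 and -1.04 in HAY and 1.46, 1.2, 0.83 and 0.20 in CON. CON calf 14 stood almost level with HAY calf 10, and HAY calf 9 above CON calves 12 and 14. The difference was -0.88 (SE 0.50, limma adjusted p = 0.467), and -0.34 without HAY calf 13.

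ROBO4 was nearly level over the calves. It read -4.27, -4.00 and -4.34 in HAY calves 9, 10 and 13, against -4.32, -4.21, -4.42 and -4.13 in CON calves 8, 11, 12 and 14, so its whole range was 0.42 log2 units, or 1.34-fold. Its difference of 0.068 had a 95% interval of -0.27 to 0.41 (SE 0.15, limma adjusted p = 0.874). The SD over the 7 calves was 0.14, with 9.82% of all tested genes varying less. The other 9 members had SDs between 0.47 and 0.99, with 76.0 to 94.7% of tested genes varying less.

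**Figure D2:**
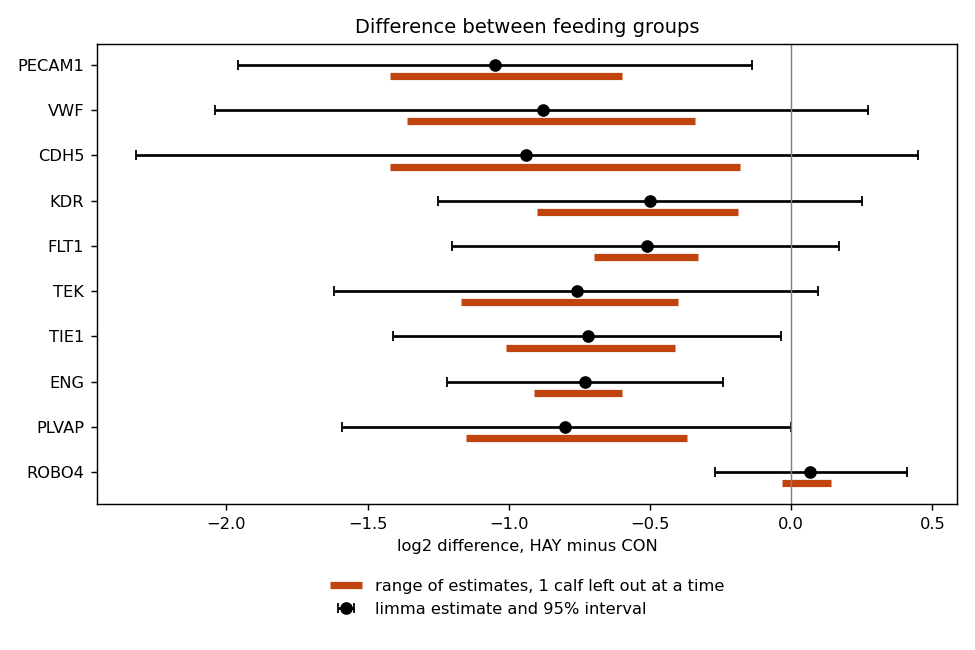
Log2 difference of HAY minus CON for each endothelial gene (horizontal axis), with the limma 95% interval as a black bar and the span of estimates when each calf is left out in turn as a red bar. The intervals of ENG, PECAM1 and TIE1 lie wholly under 0, and that of ROBO4 runs from -0.27 to 0.41.

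With each gene centred on its own mean over the 7 calves, the mean of the 10 genes was 0.20, -0.28 and -1.10 in HAY calves 9, 10 and 13. It was 0.45, 0.29, 0.36 and 0.072 in CON calves 8, 11, 12 and 14. The groups overlapped, since HAY calf 9 lay above CON calf 14. HAY calf 13 was the lowest calf for 9 of the 10 genes, all but ROBO4, and lay under the gene's own mean for all 10. The group means were -0.39 ± 0.66 (SD, n = 3) for HAY and 0.29 ± 0.16 (SD, n = 4) for CON, so the HAY calves were spread more widely.

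**Figure D3:**
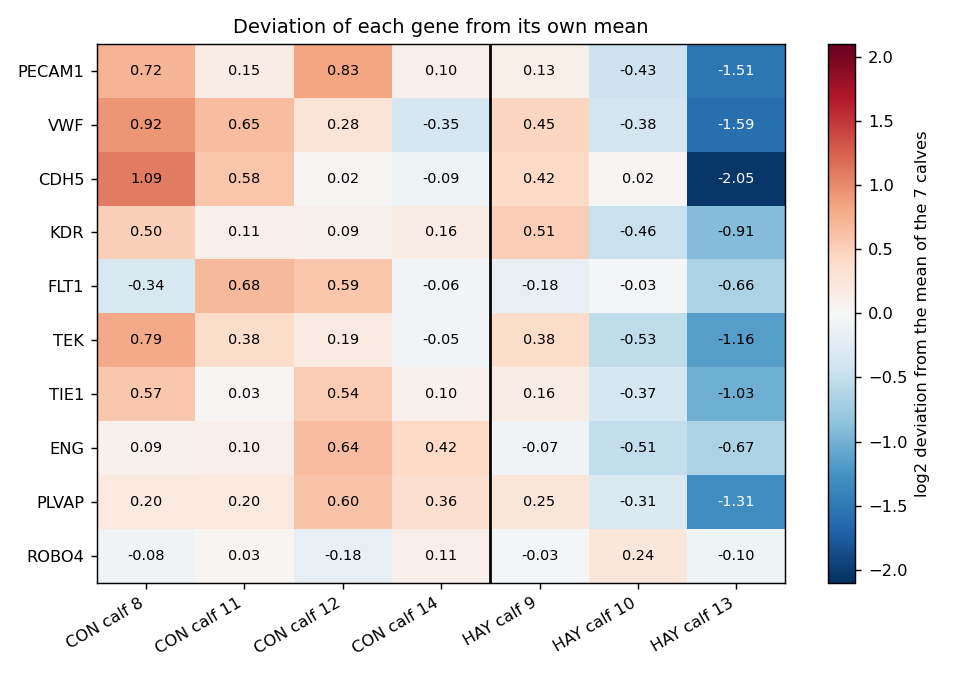
Log2 deviation of each endothelial gene (rows) from its own mean over the 7 calves (columns, CON left of the line and HAY right of it), from blue (lower) to red (higher). HAY calf 13 is blue in every row, down to -2.05 for CDH5, while HAY calf 9 is red in 7 rows.

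Inside the CON group the genes did not order the calves alike. VWF, CDH5, TEK and TIE1 were highest in calf 8. PECAM1, ENG and PLVAP were highest in calf 12 and FLT1 in calf 11, while KDR was highest in HAY calf 9 and ROBO4 in HAY calf 10. CON calf 14 was the lowest of its group for VWF, with a deviation of -0.72 from the CON mean, and for TEK, at -0.38, but lay 0.11 above the CON mean for ENG. By the root mean square difference between centred profiles, the pair most alike was KDR and TEK (0.21 log2 units), followed by TIE1 and PLVAP (0.22) and PECAM1 and TIE1 (0.23). The pair least alike was CDH5 and ROBO4 (0.91). Of the single genes TIE1 lay closest to the mean profile of the 10, at 0.14, a mean of which it is itself a part.

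Leaving out calves moved the size of the group difference more than its sign. The median difference of the members was -0.36 once HAY calf 13 was left out and -1.08 once calf 9 was. The number at an unadjusted limma p under 0.05 and lower in HAY, 3 with all calves, was 7 without HAY calf 9, where 9.51% of all genes were called so, and 2 without CON calf 8, beside 5.43%. It was 1 each without HAY calf 10 (4.84% of all genes), HAY calf 13 (3.95%) or CON calf 12 (5.57%), and 1 of 10 is near those shares. Without HAY calf 9 the groups did not overlap for 7 of the 10, where 13.4% of all genes then lay lower without overlap, and without CON calf 14 for 2 of the 10, beside 11.7%. Without calf 9 the number passing the adjusted threshold among the 10 was still 0. Without both calves 8 and 13 the median was -0.29 and 8 of the 10 differences were negative.

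The slide column could be compared within, since columns 2, 3 and 4 each held 1 calf of either group. In column 2 HAY calf 9 was lower than CON calf 11 for 6 of the 10 genes, with a median difference of -0.036. In column 3 HAY calf 10 was lower than CON calf 12 for 9 of 10, with a median of -0.69. In column 4 HAY calf 13 was lower than CON calf 14 for all 10, with a median of -1.12. The size of the difference thus varied between columns from near 0 to more than 1 log2 unit, each with 1 calf a side and no test. ENG differed by -0.17, -1.15 and -1.10 in these columns. With slide column as a block in limma, which gives CON calf 8, alone in its column, no weight in the difference, the median over the members was -0.70.

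The ligands and co-receptors of the VEGF system did not share one direction. Of 7 measured genes 3 had lower and 4 had higher means in HAY, with a median of 0.28. VEGFA, the main ligand of KDR, read 0.67, 1.34 and 0.98 in HAY calves 9, 10 and 13, against 0.28, 0.80, 0.74 and 0.76 in CON calves 8, 11, 12 and 14, with a difference of 0.35 (SE 0.21, limma adjusted p = 0.487). VEGFB and PGF, ligands of FLT1, differed by 0.28 and 0.46. VEGFD, close to background, differed by 0.30, with 2 of 3 HAY and 2 of 4 CON arrays well above background. VEGFC, a ligand of lymphatic growth, differed by -0.84, and the co-receptors NRP1 and NRP2 by -0.72 and -0.57. NRP2 was the only 1 of the 7 at an unadjusted limma p under 0.05, and its HAY calves all lay under the CON calves (adjusted p = 0.3). Of all genes 7.17% were lower in HAY at that unadjusted p, and 5.3% lay lower without overlap.

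All 4 genes around the TIE receptors had lower means in HAY. ANGPT1, the activating ligand of TEK, read -4.09, -5.50 and -5.94 in HAY calves 9, 10 and 13, against -3.59, -3.73, -4.06 and -4.02 in CON calves 8, 11, 12 and 14. The groups did not overlap, though calf 9 lay just under CON calf 12. The difference was -1.33 (SE 0.41, limma adjusted p = 0.27). ANGPT2, the ligand released by endothelial cells themselves, differed by -1.08, the endothelial phosphatase PTPRB by -0.82 and ANGPT4 by -0.19. Of these 4, ANGPT1 alone had an unadjusted limma p under 0.05, beside 7.17% of all genes lower at that p. It was also the only 1 without overlap, beside 5.3% of all genes lower without overlap.

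Of 10 genes of endoglin signalling 7 had lower and 3 higher means in HAY, with a median of -0.21. ACVRL1, the type I receptor that ENG assists, read 1.04, 0.48 and -0.41 in HAY calves 9, 10 and 13, against 1.62, 1.13, 1.36 and 1.12 in CON calves 8, 11, 12 and 14. As for ENG, all HAY calves lay under all CON calves, with calf 9 nearest to them (difference -0.94, SE 0.33, limma adjusted p = 0.298). The type II receptor BMPR2 differed by -0.33. The other way, the target gene ID1 (0.37) and the ligand gene GDF2 (0.35) were higher in every HAY calf than in any CON calf. Of this list 1 gene was thus lower and 2 were higher without overlap. Beside these stand 5.3% of all genes lower without overlap. No share was taken for the higher direction, so the 2 higher genes are not read as a result. ID1 also separated by little, with 0.56 in HAY calf 13 and 0.55 in CON calf 14. The target ID3 differed by -0.67 and the ligand BMP10 by 1.02. Among the SLIT ligands and ROBO1, 1 of 3 genes had a lower mean in HAY: SLIT3 differed by -1.34, SLIT2 by 0.52 and ROBO1, a guidance receptor of many cell types, by 0.60. The limma adjusted p of ROBO1 was 0.301.

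Of 11 endothelial transcription factors 9 had lower means in HAY, with a median of -0.64. The ETS factors ERG and FLI1 differed by -0.70 and -1.13, and SOX18, which acts in vessel and lymphatic development, by -0.88. ETS1, an ETS factor of many cell types, was higher in every HAY calf than in any CON calf (0.56, limma adjusted p = 0.354). HHEX, a homeobox factor, was well above background on all 4 CON arrays and on 0 of the 3 HAY arrays. Its signal was at least 2.49-fold lower in HAY (limma adjusted p = 0.21), a bound for which each HAY value was raised, where it was lower, to the dimmest signal called above background on that array. SOX17, LYL1 and SOX7 differed by -0.026, -0.016 and -0.073. Lower in HAY with an unadjusted limma p below 0.05 was FLI1, beside 7.17% of all genes. HHEX also had such a p, but it passed the filter on dim probes through its CON arrays alone. Its p-values are therefore not read as a result. Higher at an unadjusted limma p below 0.05 was ETS1, while none passed the adjustment. No share of all genes was taken for the higher direction alone. In either direction 1755 of the 12570 genes had such a p.

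Of 19 further junction and surface genes of endothelium 18 had lower means in HAY, with a median of -0.82. Of these, 4 had an unadjusted limma p under 0.05, beside 7.17% of all genes lower at that p. The 4 brightest were AQP1, a water channel, at -0.86, CLDN5, the tight junction protein of endothelium, at -1.10, CD93, a surface receptor, at -0.95, and TM4SF1 at -0.19. CD93 read 1.77, 1.83, 1.91 and 1.71 in CON calves 8, 11, 12 and 14, but 1.73, 0.95 and -0.12 in HAY calves 9, 10 and 13. The CON calves were nearly level, and calves 10 and 13 again lay under all of them. Of 7 genes of lymphatic endothelium all had lower means in HAY, with a median of -0.44. PDPN, also made by other cells, differed by -0.93 without overlap between groups, beside 5.3% of all genes lower without overlap. CCL21 differed by -0.52 and LYVE1 by -0.66. PROX1, the defining lymphatic factor, differed by -0.31, with 2 of 3 HAY and 3 of 4 CON arrays well above background.

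Markers of other cells varied over the same calves, and their part in the endothelial result was not tested. All 10 fibroblast genes had lower means in HAY, with a median of -1.55, and their summed signal, in percent of the array's 75th percentile, ran from 1620 to 7330 in HAY and from 4930 to 23700 in CON. The 10 smooth muscle genes likewise all had lower means, their median being -1.29 and sums of 1540 to 3620 in HAY and 3640 to 8550 in CON. Calf by calf, the mean centred level of the fibroblast genes was 0.18, -1.01 and -1.63 in HAY calves 9, 10 and 13, against 1.60, 0.56, 0.52 and -0.21 in CON calves 8, 11, 12 and 14. Calf 13 was therefore lowest for fibroblast, smooth muscle (-1.2) and endothelial genes alike. CON calf 8 stood much further above the other calves for fibroblast and smooth muscle genes (1.60 for each) than for the 10 endothelial genes (0.45). In other endothelial lists its lead varied. It stood at 0.83 for the further surface genes, where the next calf had 0.31. For arterial and venous genes these values were 0.72 and 0.30, and for endothelial transcription factors 0.39 and 0.30.

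PECAM1 is shared with blood cells, so their lists are given beside it. All 7 leukocyte genes had lower means in HAY, with a median of -0.99 and summed signals of 417 to 731 in HAY and 641 to 1280 in CON. Of 5 platelet genes 1 was lower and 4 were higher, with a median of 0.14 and sums of 95.6 to 147 in HAY and 83.6 to 112 in CON. PPBP, a defining platelet chemokine, was not well above background on any array. Pericyte and mural genes were split, with 5 of 8 lower, a median of -0.18 and sums of 3700 to 4830 in HAY and 2740 to 4090 in CON, most of it from MCAM, which also marks other cells. The 4 brightest of this list were MCAM (0.40), CSPG4 (0.34), PDGFB (0.64) and HIGD1B (-1.18). The rest were all lower: KCNJ8 (-0.11), RGS5 (-0.79), COX4I2 (-0.26) and ABCC9 (-1.04). ABCC9 was well above background on only 1 of 3 HAY and 3 of 4 CON arrays. PDGFB is the ligand that recruits pericytes and not a marker of them, though it is counted in the list. Of 11 keratinocyte genes 3 were lower and 8 higher, with a median of 0.078, and the mean centred level lay between -0.18 (CON calf 8) and 0.27 (HAY calf 9).

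**Figure D4:**
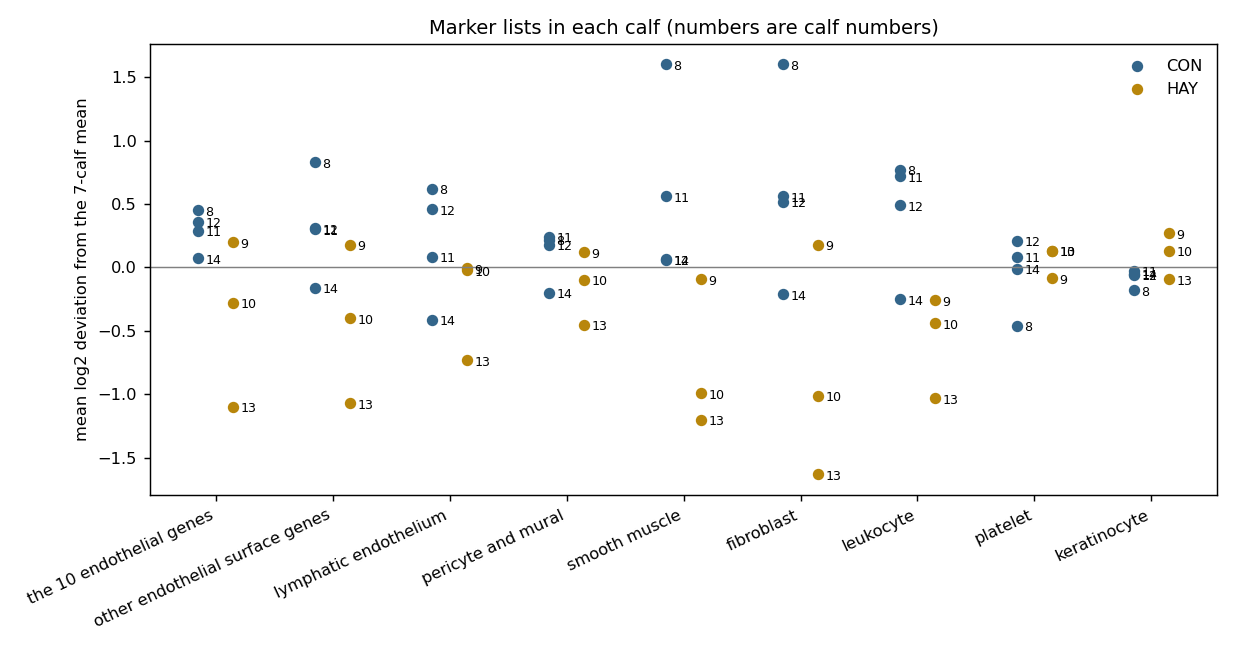
Mean log2 deviation from the 7-calf mean (vertical axis) of the tested genes of 9 marker lists in each calf, CON in blue and HAY in ochre, with calf numbers. HAY calf 13 is the lowest point for both endothelial surface lists and the lymphatic, mural, smooth muscle, fibroblast and leukocyte lists, and the keratinocyte points lie between -0.18 and 0.27.

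The tested genes most like the members' mean profile were picked by the smallest root mean square difference over the 7 calves, among 11175 named genes well above background on every array, as a description without a test. They were LMCD1, a LIM domain protein (0.093 log2 units), ITGB1, the integrin beta 1 chain (0.099), the growth factor PDGFD (0.12), the ETS factor ELK3 (0.12), RAMP3, a partner of the calcitonin-like receptor (0.13), and then MYCN, the sialyltransferase ST3GAL2, TMEM204, the interferon gamma receptor IFNGR1 and GYPC, at 0.14 to 0.15. The median over all candidates was 0.57. ITGB1, for example, stood at 0.11, -0.43 and -0.98 in HAY calves 9, 10 and 13, against at 0.50, 0.27, 0.49 and 0.032 in CON calves 8, 11, 12 and 14. Its calf order was that of the members' mean, with calf 8 highest and calf 13 lowest. Of the members themselves, ROBO4 had 4446 candidates closer to that mean than it was, CDH5 3357 and TIE1 6.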

How the data were processed

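The deposited scanner files hold spot intensity on a linear scale, with a fitted background surface subtracted, local background correction off, multiplicative detrending on and surrogate values allowed for dim spots, made within each array with version 9.5 of Agilent Feature Extraction, per the file headers. The submitters' processing notes name the same software. The authors also deposited a table of log2 values for the series. Against the scanner values its columns were the log2 signal minus the array's 75th percentile, uncentred per gene, with medians of -3.20 to -3.08. Control and outlier spots were left out, spots of a probe were averaged, and each array's 75th percentile was subtracted. The filter kept 12604 probes that were well above background on 3 or more of the arrays, and the brightest probe of a gene was used (12570 genes). HAY and CON were set against each other in limma (version 3.58.1, lmFit then eBayes, R 4.3.3), and p-values were adjusted over all genes by Benjamini-Hochberg. A test of the fit on simulated data has no outcome given here and lends the p-values no added weight. No spot of the 10 genes was dropped, and 0 held a surrogate value. The number of arrays limits the precision.

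The members, gene lists and the rule for named genes were chosen with earlier results of these data known. All members were named. Every measured gene of the VEGF, TIE, endoglin, SLIT, transcription factor and lymphatic lists could be given. Of most other lists up to 4 of highest mean signal were given, or genes named for a stated background status. Of the keratinocyte list the brightest and the dimmest gene were given, and TP63 as another under 0. The 10 genes of closest calf profile were added, without locus names. MCAM, CSPG4, PDGFB and HIGD1B are the 4 brightest genes of the pericyte and mural list. They hold all of its higher genes, so that list was given in full. Counts over lists carry no test.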

Additional observations from a re-analysis of the deposited data

How the results depend on the processing

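No paired analysis was possible by calf number, because the groups share none, and slide column was fitted as a block instead. Over 17 alternatives no member passed the adjusted limma threshold, and 8 of the 10 differences, all but ROBO4 and CDH5, stayed negative in every one. With normexp the median difference was -0.56 and 5 members were lower at an unadjusted limma p under 0.05 (8.01% of all genes), against -0.75 and 3 (7.17%), and ROBO4 was -0.029. Without calves 8 and 13 these were -0.29 and 1 (3.46%), and CDH5 was 0.05. When each calf was left out, the median ran from -1.08 to -0.36 and ROBO4 from -0.032 to 0.14. The number at an unadjusted p under 0.05 ran from 1 to 7 (3.95 to 9.51% of all genes). The number without overlap ran from 1 to 7, beside 6.71 to 13.4% of all genes lower without overlap. CDH5 was not tested where all 7 arrays had to be above background. Quantile normalization and median centring gave medians of -0.68 each, with 9 of 10 lower, and median centring moved the median of all genes from 0.032 to 0.097. The slide column block, the deposited table, the mean of probes and the moderated fit with trend gave medians of -0.75 to -0.70 with 3 or 4 members at an unadjusted p under 0.05, beside 7.08 to 9.11% of all genes. The small signal of CDH5 over background limits what its values can show.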

Other observations

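Genes for the traffic and clotting functions of endothelium were read from the same arrays. All 4 tested genes of leukocyte adhesion had lower means in HAY, their median difference being -0.63 on the log2 scale. SELP, P-selectin, read -1.51, -1.68 and -3.26 in HAY calves 9, 10 and 13, against -0.69, -0.94, -0.82 and 0.19 in CON calves 8, 11, 12 and 14, so that the groups did not overlap (difference -1.58, SE 0.47, limma adjusted p = 0.258). MADCAM1, an address molecule of gut vessels, differed by -0.90 without overlap (SE 0.22, limma adjusted p = 0.222), while ICAM1 and ACKR1 differed by -0.28 and -0.37. SELE was well above background on no array. Of 6 genes of clotting control 4 had lower means in HAY. THBD, thrombomodulin, differed by -1.68 and PLAT, the tissue plasminogen activator, by -1.15, each without overlap. PROCR differed by -0.20 and PTGIS by 0.20. In all, 2 of the 4 adhesion genes and 3 of the 6 clotting genes lay lower without overlap, beside 5.3% of all genes. None of these genes passed the adjustment.

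Of 6 genes that mark arteries or veins 5 had lower means in HAY, with a median of -0.80. The venous factor NR2F2, also made by stromal cells, differed by -0.93, the arterial connexin GJA4 by -1.14, the Notch ligand DLL4 by -1.0 and NOTCH4 by -0.55. The mean centred level of these 6 genes was 0.074, -0.17 and -1.08 in HAY calves 9, 10 and 13, against 0.72, 0.30, 0.19 and -0.04 in CON calves 8, 11, 12 and 14. Calf 13 was the lowest here too, and HAY calf 9 lay above CON calf 14.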
